A study of Homo sapiens with 6 samples.

Results

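Very short introns were followed in K562 cells after depletion of ZRSR2. They were defined by length and depth, as listed introns of at most 120 nt whose reads, at the boundaries and spliced, averaged at least 50 over the 6 libraries. The rule found 9136 introns among the 241593 listed, 7.83% of the 116705 introns of at least 50 reads at any length. Without the minimum of reads, 15289 listed introns were that short. K562 is a human leukaemia line with erythroid and megakaryocytic features. The first group was transduced with the shRNA called ZRSR2 sh1, the second with ZRSR2 sh2 and the third with the control shRNA Con_sh. Each group held 2 libraries, numbered by experiment, of polyA-selected RNA, and neither separate cultures nor separate clones were stated in the labels. All p-values given here thus rest on the spread between these libraries alone, which may be technical.

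Introns are removed by the spliceosome, which pairs the 5′ splice site with a branch point and the 3′ splice site near it. In a very short intron these signals lie close together, and vertebrate introns of this size are often recognised as a unit across the intron, whereas long introns rely on recognition across the neighbouring exons. ZRSR2 is a protein of the minor spliceosome, the machinery that removes the rare U12-type introns, where it takes part in recognising the 3′ splice site. Retention, the quantity reported here, is the percent of reads at an intron that cross its boundaries without being spliced, counted as boundary reads over boundary reads plus 2 times the spliced reads.

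Spliced reads summed over all introns came to between 82986327 and 101120454 per library. The very short introns held between 8852102 and 11035296 of these, and between 610757 and 697417 boundary reads. ZRSR2 itself had 10.9 and 10.7 RPM in sh1 and 10.6 and 12.7 in sh2, against 28.6 and 23.6 RPM in Con_sh, where RPM is spliced reads scaled to a library total of 1000000 spliced reads. The summed level of 9 markers of K562 cells was 10400 and 5640 RPM in sh1 and 14800 and 7910 in sh2, against 4240 and 5900 in Con_sh. The globin genes HBG1 and HBG2 led this sum, with 1540 to 5380 RPM in the knockdown libraries, against 1040 to 1920 in Con_sh. Not every marker rose. TFRC had 839 to 1110 RPM in the knockdown libraries, against 1100 and 1150 in Con_sh, and BCR 152 to 196, against 182 and 198. The 10 markers of other cell types summed to between 153 and 179 RPM in the knockdown libraries, against 218 and 199 in Con_sh, and 4 of the 10 (MS4A1, MPO, CD14 and ALB) were below 1 in every library. EPCAM, an epithelial marker, led that list with 79.5 to 107 RPM in the knockdown libraries, against 102 and 114 in Con_sh. In bulk RNA a change in cell state and a change per transcript cannot be told apart.

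The whole sequence was at hand for 40 of the very short introns, those lying inside the windows around gene starts that RefSeq gives on GRCh38. The sequences that follow include strongly retained and efficiently spliced introns and the one among the 40 that changed. All are written 5′ to 3′ on the strand of the gene, and the capitals mark the first 2 and last 2 bases, the dinucleotides at which the intron is cut. HSPBP1, a nucleotide exchange factor of Hsp70, SRPK3, an SR protein kinase of muscle, and DPP7, a lysosomal peptidase, held the 3 introns with the highest retention in Con_sh among these 40. EIF3I, a subunit of a translation initiation factor, CLSPN, a protein of the replication checkpoint, and RNF220, a ubiquitin ligase, held efficiently spliced ones. ACP5, tartrate-resistant acid phosphatase, was called more retained after ZRSR2 depletion. The call rests on 17 and 2 boundary reads in Con_sh, and DESeq2, a second test, did not give it. The PKD1P1 sequence is shared letter by letter by introns of PKD1P4 and PKD1P5.
HSPBP1: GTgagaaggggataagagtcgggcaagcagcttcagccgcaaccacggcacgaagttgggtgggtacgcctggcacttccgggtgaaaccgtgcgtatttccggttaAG
SRPK3: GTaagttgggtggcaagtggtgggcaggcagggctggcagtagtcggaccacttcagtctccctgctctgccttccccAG
DPP7: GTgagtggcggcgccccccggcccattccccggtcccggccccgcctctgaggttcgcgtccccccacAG
EIF3I: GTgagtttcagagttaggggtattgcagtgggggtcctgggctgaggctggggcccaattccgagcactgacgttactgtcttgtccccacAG
CLSPN: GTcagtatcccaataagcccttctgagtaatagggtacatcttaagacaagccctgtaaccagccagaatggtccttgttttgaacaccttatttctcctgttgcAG
RNF220: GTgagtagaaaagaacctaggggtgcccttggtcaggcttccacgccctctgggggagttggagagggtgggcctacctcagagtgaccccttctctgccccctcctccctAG
ACP5: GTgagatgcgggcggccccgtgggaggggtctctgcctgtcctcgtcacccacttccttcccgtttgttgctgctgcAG
PKD1P1: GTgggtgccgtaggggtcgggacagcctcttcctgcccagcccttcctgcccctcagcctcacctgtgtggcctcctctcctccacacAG

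The HSPBP1 intron (GRCh38, minus strand, chr19:55280109-55280217, 109 nt) was retained at 57.4% and 56.8% in sh1 and at 42.2% and 53.6% in sh2, against 50.6% and 52.5% in Con_sh. The DPP7 intron (minus strand, chr9:137114577-137114646, 70 nt) had 32.9% and 36% in sh1 and 34.5% and 39.1% in sh2, against 36.1% and 39.8% in Con_sh. In both, the knockdown and control libraries overlapped, so that a high level of retention stood in every library alike. The SRPK3 intron (plus strand, chrX:153784214-153784293, 80 nt) averaged 50% in Con_sh. At the other end, the RNF220 intron (plus strand, chr1:44649770-44649882, 113 nt) averaged 0.507% in Con_sh, the CLSPN intron (minus strand, chr1:35739258-35739364, 107 nt) 0.743% and the EIF3I intron (plus strand, chr1:32222445-32222537, 93 nt) 1.96%. None of these 6 passed the test between the knockdown and Con_sh libraries (edgeR adjusted p of 1 for each).

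GC content of the 38 distinct sequences ran from 33.3% to 85.5% with a median of 63.9%. The 24 distinct sequences over 60% GC had a median control retention of 8.71%, against 2% for the 14 others. Across these introns GC content and control retention had a Spearman rho of 0.392 and a Pearson r of 0.342, given as a description, since the introns share the libraries and all lie near gene starts, where base composition is particular. The 25 introns of 121 to 300 nt found in the same windows had a median GC content of 64.4%, close to that of the short ones. All 76 short introns over 30 nt whose first bases could be read began with GT, and 48 of 48 whose last bases could be read ended with AG. None of the 70 with 8 readable bases began with GTATCCTT or ATATCCTT, letters of the U12-type 5′ splice site searched on the strand of the gene, while 2 of 3430 other listed introns did (0.0583%). A search of 70 introns says only that these letters were not at those starts.

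Some of the very short introns, 3 in all, lay over annotated microRNA hairpins. In ELMO3 the hairpin, MIR328, covers 75 of the 112 nt of the intron on the opposite strand, and so is not part of the intron's RNA. The pair of hairpins on the strand of the host intron is shown, with capitals marking the mature arms.
MIR4695: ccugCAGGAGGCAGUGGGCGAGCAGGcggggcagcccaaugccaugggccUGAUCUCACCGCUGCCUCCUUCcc
MIR4690: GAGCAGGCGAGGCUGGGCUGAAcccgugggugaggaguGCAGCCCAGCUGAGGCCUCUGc
MIR4695 takes 74 of the 80 nt of an ALDH4A1 intron, which was retained at no more than 0.458% in any library. MIR4690 takes 60 of the 83 nt of a PCNX3 intron, retained at 17.2% and 14.7% in sh1 and 15.4% and 15.2% in sh2, against 12.6% and 18.7% in Con_sh. Neither changed (edgeR adjusted p of 1), and the 2 introns stood far apart in retention in every library.

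The length of the very short introns had a median of 92 nt, with quartiles at 83 and 103 nt. A total of 145 were between 31 and 70 nt long. A further 95 were 30 nt or shorter, 30 of them of a single nucleotide, and spans of that size are gaps in annotated transcripts rather than introns a spliceosome could remove. Named host genes numbered 3932, while 73 of the short introns had no gene name and 417 fell in more than one candidate gene. A length divisible by 3 was found for 32.3%, against 33.4% of the longer introns of at least 50 reads. Of the short introns 12.8% lay inside another listed intron, against 21.2% of the longer ones, and where genes overlap on opposite strands their reads cannot be told apart. Chromosome 19 held the largest share, 16.1% of its introns of at least 50 reads, followed by chromosomes 16 (13.1%), 11 (10.7%) and 17 (10.1%), and chromosome 21 had 3.31%.

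A few large genes carried many very short introns. TTN, which encodes the giant muscle protein titin, had 38, with control retention between 0% and 70.4% and a median of 15.9%. LAMA5, a laminin chain of basement membranes, had 31 with a median of 3.49%, and ABCA2, a lipid transporter, had 26 with a median of 4.53%. FLNA, the actin crosslinker filamin A, also had 26 and a median of only 1.4%, with its highest intron at 5.54%. NBEAL2, a protein of platelet granules, had 24 with a median of 7.96%. Most host genes had few, 2146 of them a single one and 90 of them 10 or more.

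Very short introns were retained at a median of 2.25% and 1.95% in sh1 and 2.33% and 2.33% in sh2, against 2.16% and 2.17% in Con_sh. The 107569 longer introns of at least 50 reads had medians of 1.3% and 1.11% in sh1, 1.31% and 1.34% in sh2, and 1.08% and 1.23% in Con_sh. The short introns were thus higher in each of the 6 libraries, while their medians in the knockdown groups, 2.1 ± 0.212% in sh1 and 2.33% in both sh2 libraries, lay around the 2.16 ± 0.00664% of Con_sh (SD, n = 2). Control retention of at least 10% was found for 1391 short introns, 15.2% of them against 9.55% of the longer ones. Retention of at least 50% was rarer among them, 63 introns or 0.69%, against 1.54% of the longer ones.

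Between 31 and 110 nt the level was lower in each longer class of length. Introns of 31 to 70 nt had a median of 5.79 ± 0.974% in sh1 and 7.14 ± 0.848% in sh2, against 6.94 ± 0.729% in Con_sh (SD, n = 2 each). Those of 71 to 80 nt had 4.38 ± 0.59% in sh1 and 4.87 ± 0.555% in sh2, against 4.62 ± 0.528% in Con_sh. At 81 to 90 nt the Con_sh median was 2.19%, and it was 1.73% at 91 to 100 nt, 1.65% at 101 to 110 nt and 1.76% at 111 to 120 nt. The 95 spans of 1 to 30 nt lay apart from this order, with 2.16 ± 1.2% in sh1 and 2.67 ± 0.386% in sh2, against 2.03 ± 0.0354% in Con_sh. The next longer classes did not continue the fall, with 1.78% at 121 to 150 nt and 2.19% at 151 to 200 nt. On either side of the length limit the values were alike, 1.63% in Con_sh for the 311 introns of 118 to 120 nt and 1.47% for the 315 of 121 to 123 nt. At the limit of 50 reads, introns of up to 120 nt averaging 50 to 55 reads had a Con_sh median of 2.39%, and those of 45 to 50 reads 2.81%.

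**Figure D1:**
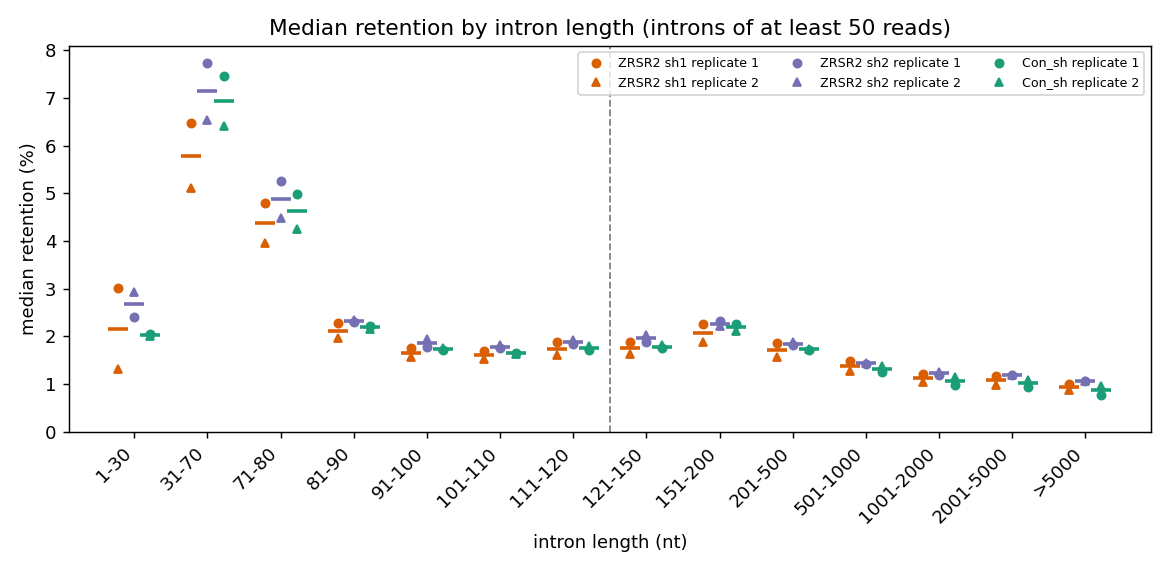
Median retention in percent (vertical axis) of introns of at least 50 reads in classes of length in nt (horizontal axis). Circles and triangles are the replicates 1 and 2, horizontal bars the mean of a group, and the dashed line marks 120 nt; introns of 31 to 80 nt stand highest in all 3 groups.

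Within host genes the short introns were above the rest in fewer genes than they were below. In the 3813 genes that held both kinds, the median of the short introns exceeded that of the other introns of the same gene in 44.8% and 46.1% of genes in sh1 and in 45.7% and 46.9% in sh2, against 47% and 47.4% in Con_sh. Taken separately over these genes, the medians in Con_sh were 1.89% and 1.9% for the short introns and 1.67% and 1.72% for the other introns, which are not the values of any 1 gene.

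Reads were spread more evenly over the boundaries of very short introns. Among the 6152 with at least 50 boundary reads, the smaller of the 2 boundary counts was a median of 0.727 of the larger, against 0.505 for longer introns. The ratio was 0.985 for spans of 1 to 30 nt, 0.668 at 111 to 120 nt and 0.227 beyond 5000 nt. Just above the length limit it was 0.683 at 121 to 150 nt and 0.632 at 151 to 200 nt, so it did not change at 120 nt. The covered share of the intron had a median of 100% in Con_sh for the short introns, against 64.3% for the longer ones. It was also 100% at 121 to 150 nt and at 151 to 200 nt, and 98% at 201 to 500 nt, so full coverage was not particular to the short introns. A single read can cross both boundaries of a short intron, and whether it was then counted at each is not given in the sources used here. At the span of 1 nt in RPS27A the left and right counts were 103 and 100 in sh1 replicate 1. They were 67 and 67 in Con_sh replicate 1, and 97 and 97 in Con_sh replicate 2. The share of reads counted at both boundaries was not tested.

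**Figure D2:**
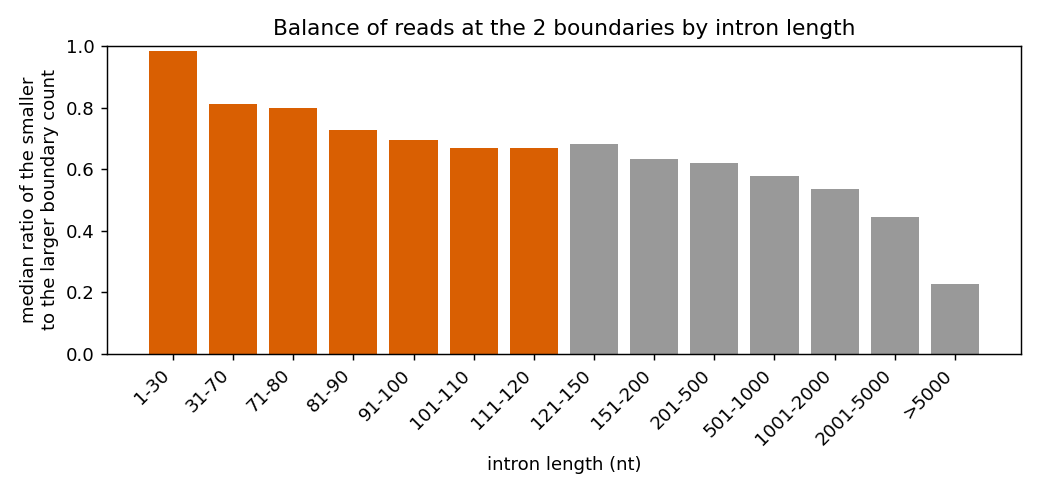
Median ratio of the smaller to the larger boundary count (vertical axis) by class of intron length in nt (horizontal axis), over introns with at least 50 boundary reads in the 6 libraries. Orange bars are classes of at most 120 nt and grey bars are longer ones; the ratio falls to 0.227 beyond 5000 nt.

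The highest retention in Con_sh among very short introns belonged to a LINC01670 intron of 99 nt, a long non-coding RNA. It had 94.5% and 93.7% in sh1 and 54% and 69.6% in sh2, against 90.1% and 87.9% in Con_sh. The sh2 libraries stood below the others, and the entry averaged only 99.3 reads and was not past the threshold (edgeR adjusted p = 1 over both shRNAs). Nearly all of its boundary reads lay at 1 boundary, 71 of 73 and 98 of 102 in Con_sh, and with the smaller boundary count doubled its retention was 20% and 33.3% in sh1 and 8.57% and 22.2% in sh2, against 33.3% and 36.4% in Con_sh. Next came LOC124900276 with a mean of 85.6% in Con_sh, MALAT1 with 85.1%, MST1 with 79.1% and CAMTA1-DT with 74.5%. MALAT1 is a nuclear non-coding RNA that is mostly left unspliced, and MST1 encodes macrophage-stimulating protein. In MST1 both knockdown groups were lower, 44.7% and 58.5% in sh1 and 70.2% and 63.6% in sh2 against 82.6% and 75.6% in Con_sh, without passing the test (edgeR adjusted p = 1).

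The deepest entries were 3 introns of EEF1A1, the translation elongation factor that delivers aminoacyl-tRNA to the ribosome. They averaged 203000, 166000 and 149000 reads and retained between 0.148% and 0.788% in every library. The shortest entries were of a single nucleotide. In OAZ1, ornithine decarboxylase antizyme, whose protein is made by a ribosomal frameshift that the annotation writes as a skipped base, retention was 49.8% and 49.7% in sh1 and 49.9% and 49.8% in sh2, against 49.9% and 49.7% in Con_sh. Its paralog OAZ2 had between 49.1% and 49.6%. The counts behind the first library, 19729 and 19802 reads at the boundaries and 19947 spliced, were nearly equal, and equal counts give 50% by arithmetic. The spans of 5 nt in COL6A5 and of 2 nt in ABO, singled out after their values were seen, likewise gave 50% to 53.4% and 43.8% to 46.9%. Other spans of a single nucleotide behaved otherwise, with 0.118% to 0.263% in RPS27A, a ribosomal protein fused to ubiquitin, 0.039% to 0.222% in MROH8, and 6.79% to 9.35% in STXBP2, a protein of vesicle fusion.

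After ZRSR2 depletion, 22 of the 9136 very short introns became more retained and 3 less retained at a Benjamini-Hochberg adjusted p under 0.05 over all 134078 tested introns (edgeR quasi-likelihood test, both shRNAs against Con_sh). All 9136 passed the minimum of 20 reads for testing. The 22 are 0.241% of the short introns, against 0.33% of all tested introns, and the 3 are 0.0328%, against 0.0209%. Short introns were thus called more retained no more often than introns at large. At an unadjusted p under 0.05, 210 were higher (2.3%, against 2.78% of all tested introns) and 233 lower (2.55%, against 1.66%). The median log2 fold change, taken as boundary over spliced reads, was 0.005 over the short introns and 0.091 over the other tested introns. Scaling with TMM moved the median of all tested introns for sh2 to 0.033, where it was 0.161 without it. With DESeq2's size factors the calls over both shRNAs split into 22 more and 7 less retained.

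Each shRNA gave a like number of calls. For sh1, 18 short introns were more retained, 0.197% against 0.292% of all tested introns, and 1 less retained, 0.0109% against 0.0104%. For sh2 the same 0.197%, again 18 introns, were more retained, against 0.266% of all tested introns, and 2 were less retained, 0.0219% against 0.0201%. Scaling by TMM or by size factors turned the sh2 split into 19 and 17 more and 5 and 5 less retained. All 4 knockdown libraries stood above both Con_sh libraries in 509 short introns (5.57%), against 7.28% of all tested introns, and below both in 496 (5.43%), against 4.11%.

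By length, calls of higher retention numbered 2 of 1328 introns at 71 to 80 nt and 8 of 1206 at 111 to 120 nt (0.663%), and introns of 121 to 150 nt gave 0.361%. Their median length was 101.5 nt, and 10 of the 22 had a length divisible by 3. As 2 entries in NOP2 overlap, the 22 are 21 loci in 20 genes.

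**Figure D3:**
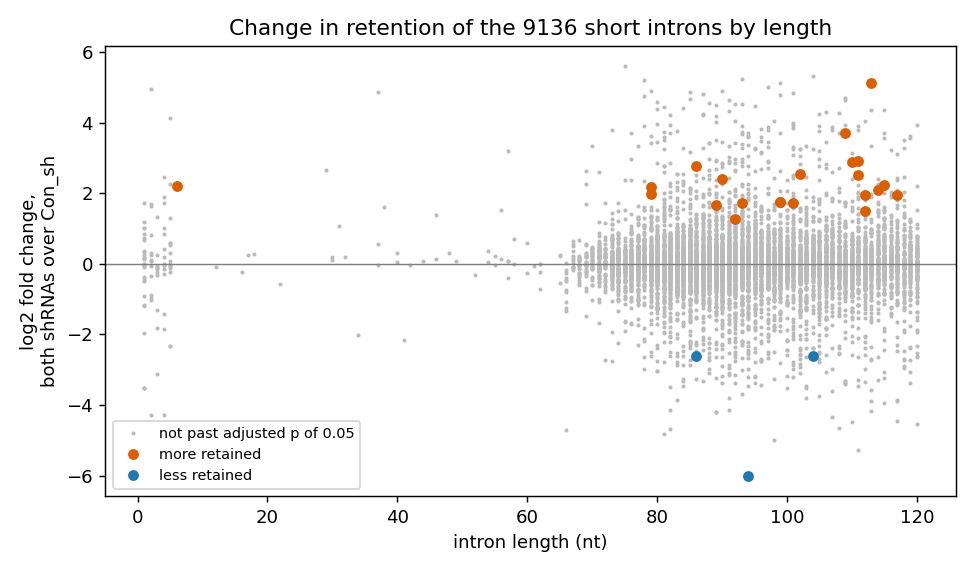
Log2 fold change (boundary over spliced reads), both shRNAs over Con_sh (vertical axis), of the 9136 very short introns by length in nt (horizontal axis). Each grey point is an intron not past the threshold, orange points are the 22 more retained and blue points the 3 less retained introns; the orange points lie at 1.28 to 5.13, and all but 1 of them at 79 nt or more.

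Over the 22 more retained introns, median retention was 20% and 11.3% in sh1 and 16.5% and 10.2% in sh2, against 3.26% and 2.61% in Con_sh. These medians describe introns picked for the difference and are not a test of it. In 20 of the 22 all 4 knockdown libraries lay above both Con_sh libraries, the exceptions being NOS3 and LOC124905564. Replicate 1 exceeded replicate 2 in 21 of 22 introns for sh1 and in 21 of 22 for sh2. The same share over all tested introns was not counted. Over all very short introns the medians of replicates 1 and 2 were 2.25% and 1.95% in sh1 and 2.33% in both sh2 libraries. The 22 introns come from the same libraries, and the entries of NOP2 share reads, so they are not separate observations. The summed K562 markers, led by HBG1 and HBG2, were also higher in replicate 1 of both shRNAs, 10400 against 5640 RPM in sh1 and 14800 against 7910 in sh2. TFRC and BCR went the other way, at 839 against 1080 and 152 against 196 RPM in sh1. In sh2 they had 1090 against 1110 and 163 against 181 RPM. The part of the markers in the difference between replicates was not tested.

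**Figure D4:**
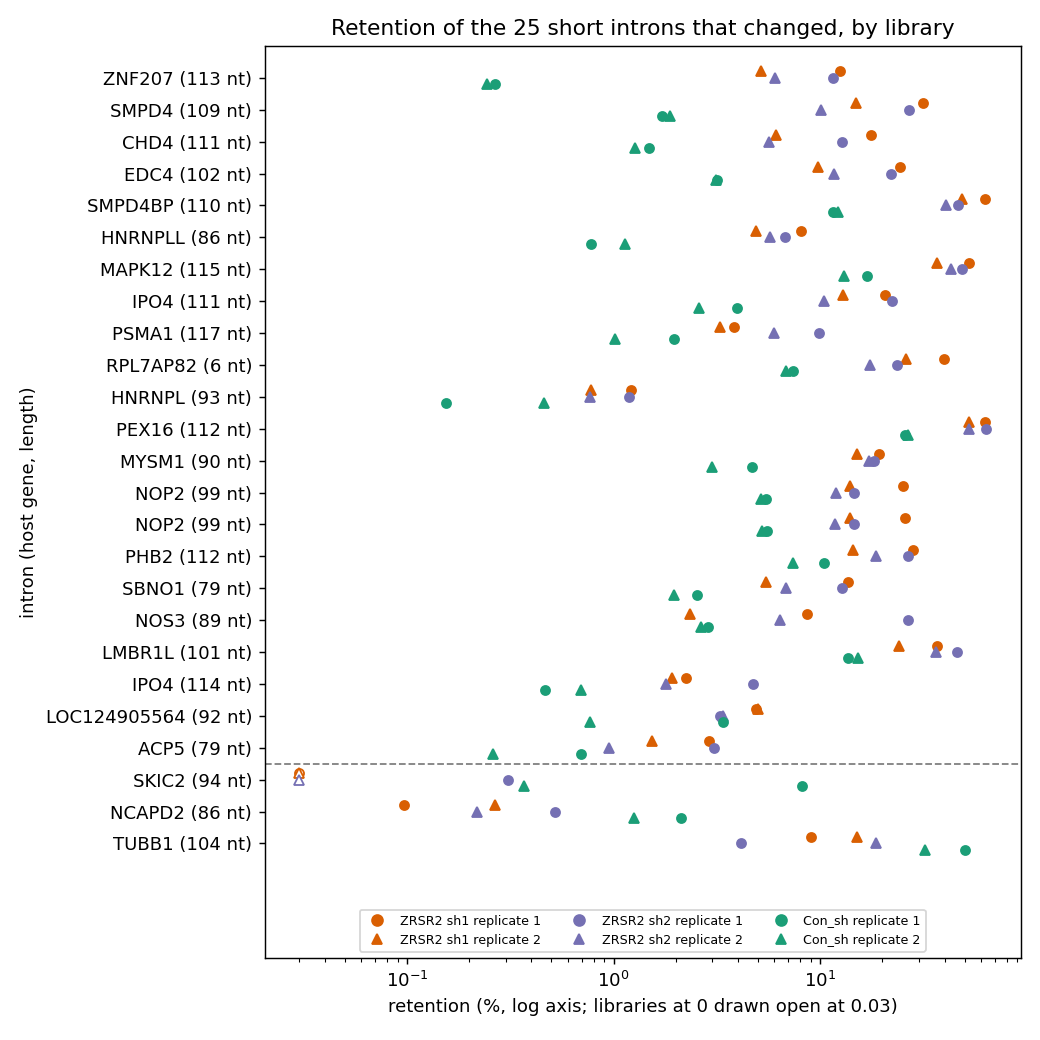
Retention in percent on a log axis (horizontal) of the 25 very short introns that changed, 1 row per intron with its host gene and length. Colours are the groups, circles and triangles the replicates 1 and 2, and open symbols at 0.03 stand for libraries at 0; above the dashed line are the 22 more retained introns, below it the 3 less retained ones.

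The largest rise was in ZNF207, which encodes a kinetochore and spindle protein that binds BUB3. Its intron of 113 nt (plus strand, chr17:32351630-32351742) was retained at 12.5% and 5.18% in sh1 and 11.5% and 6.04% in sh2, against 0.265% and 0.245% in Con_sh. The knockdown libraries lay far above Con_sh, with replicate 1 higher under both shRNAs. The log2 fold change was 5.13 (SE 0.349, edgeR adjusted p = 9.32e-44). Its boundary reads numbered 1900 and 887 in sh1 and 1820 and 844 in sh2, against 29 and 39 in Con_sh, while spliced reads stayed between 5451 and 8121. The 2 boundaries were uneven in the knockdown, with 524 and 1376 reads in sh1 replicate 1.

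SMPD4, a sphingomyelinase of the nuclear envelope and endoplasmic reticulum, had an intron of 109 nt (minus strand, chr2:130172678-130172786) at 31.4% and 14.9% in sh1 and 26.8% and 10.1% in sh2, against 1.72% and 1.87% in Con_sh. It rose by 3.72 on the log2 scale (SE 0.408, edgeR adjusted p = 4.6e-16). The related SMPD4BP, a near copy of SMPD4, had an intron of 110 nt (plus strand, chr2:131501071-131501180) at 62.6% and 48.4% in sh1 and 46.5% and 40.8% in sh2, against 11.5% and 12.2% in Con_sh. Groups were well apart in both genes. Reads may be divided between the copies, so that the share of each is uncertain (SMPD4BP log2 fold change 2.87, SE 0.449, edgeR adjusted p = 1.55e-07).

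CHD4, the remodelling ATPase of the NuRD complex, had an intron of 111 nt (minus strand, chr12:6577918-6578028) at 17.7% and 6.13% in sh1 and 12.8% and 5.63% in sh2, against 1.49% and 1.27% in Con_sh. The log2 fold change was 2.92 (SE 0.356, edgeR adjusted p = 7.06e-13). EDC4, a scaffold of mRNA decapping, had one of 102 nt (plus strand, chr16:67877407-67877508) at 24.4% and 9.79% in sh1 and 22.1% and 11.6% in sh2, against 3.15% and 3.13% in Con_sh. Here too every knockdown library was more than the spread between the controls above them (log2 fold change 2.55, SE 0.393, edgeR adjusted p = 9.15e-08).

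A pair of related RNA-binding proteins that regulate splicing, HNRNPLL and HNRNPL, both held a more retained short intron. The HNRNPLL intron of 86 nt (minus strand, chr2:38581986-38582071) was retained at 8.09% and 4.89% in sh1 and 6.78% and 5.72% in sh2, against 0.774% and 1.13% in Con_sh (log2 fold change 2.78, SE 0.437, edgeR adjusted p = 1.98e-07). The HNRNPL intron of 93 nt (minus strand, chr19:38843915-38844007) stayed low even in the knockdown, at 1.21% and 0.777% in sh1 and 1.19% and 0.771% in sh2, against 0.154% and 0.459% in Con_sh. Its groups did not overlap (log2 fold change 1.73, SE 0.352, edgeR adjusted p = 0.000423), but the call was lost without Con_sh replicate 1 (adjusted p = 0.859) and under DESeq2 (adjusted p = 0.456).

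Signalling and transport genes were also among the 22. MAPK12, the p38 gamma kinase, had an intron of 115 nt (minus strand, chr22:50255695-50255809) at 52.4% and 36.8% in sh1 and 48.5% and 43.2% in sh2, against 16.9% and 13.1% in Con_sh (log2 fold change 2.23, SE 0.372, edgeR adjusted p = 1.54e-06). This intron was already partly retained in Con_sh, and the groups lay apart. IPO4, a nuclear import receptor, had short introns on both sides of an exon that rose. The intron of 111 nt (minus strand, chr14:24181844-24181954) was at 20.7% and 12.9% in sh1 and 22.3% and 10.4% in sh2, against 3.95% and 2.59% in Con_sh, and the one of 114 nt at 2.23% and 1.91% in sh1 and 4.75% and 1.8% in sh2, against 0.466% and 0.697% in Con_sh. Their log2 fold changes were 2.52 (SE 0.432, edgeR adjusted p = 4.05e-06) and 2.08 (SE 0.537, edgeR adjusted p = 0.0318). The first call was lost without Con_sh replicate 2 (adjusted p = 0.0537) and the second without any 1 of sh1 replicate 1, sh2 replicate 1 and the Con_sh replicates (0.113, 0.707, 0.602 and 0.437).

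PSMA1 encodes a subunit of the proteasome core. Its intron of 117 nt, which lies inside another listed intron, (minus strand, chr11:14513700-14513816) was at 3.84% and 3.26% in sh1 and 9.84% and 5.99% in sh2, against 1.96% and 1.01% in Con_sh. All knockdown libraries were above Con_sh, and the log2 fold change was 1.34 for sh1 (edgeR adjusted p = 0.158) and 2.53 for sh2 (edgeR adjusted p = 2.49e-07). The difference between sh1 and sh2 itself was not past the threshold (log2 -1.19, SE 0.38, edgeR adjusted p = 0.822). Over both shRNAs the intron had an adjusted p of 1.09e-05, which became 0.289 without Con_sh replicate 2.

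Further members served organelles and chromatin. PEX16, needed to build peroxisomal membranes, had an intron of 112 nt (minus strand, chr11:45914204-45914315) at 62.7% and 52.3% in sh1 and 63.6% and 52.4% in sh2, against 25.8% and 26.7% in Con_sh, the highest level of the set in Con_sh. PHB2, a prohibitin of the inner mitochondrial membrane, had one of 112 nt (minus strand, chr12:6967780-6967891) at 28.2% and 14.4% in sh1 and 26.6% and 18.6% in sh2, against 10.4% and 7.39% in Con_sh. MYSM1, a histone H2A deubiquitinase, had one of 90 nt (minus strand, chr1:58690250-58690339) at 19.3% and 15.1% in sh1 and 18.3% and 17.2% in sh2, against 4.65% and 3% in Con_sh. The groups lay apart in these 3 introns, with log2 fold changes of 1.95, 1.5 and 2.42 and edgeR adjusted p-values of 0.000426, 0.00141 and 0.000696. Without Con_sh replicate 2 the adjusted p was 0.0563 for PEX16, 0.589 for PHB2 and 0.281 for MYSM1. PEX16 also lost its call without Con_sh replicate 1 (0.0839), and PHB2 without sh1 replicate 1 (0.19) and under DESeq2 (0.657).

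NOP2, a ribosomal RNA methyltransferase of the nucleolus, was represented by a pair of entries of 99 nt that are offset by a few bases and share their reads. The first (minus strand, chr12:6563513-6563611) was at 25.2% and 14% in sh1 and 14.6% and 11.9% in sh2, against 5.48% and 5.19% in Con_sh (log2 fold change 1.74, SE 0.363, edgeR adjusted p = 0.000767). It lost its call without either Con_sh library (0.0839 and 0.154), and the overlapping entry did so also without sh1 replicate 1 (0.0523). RPL7AP82, a ribosomal protein pseudogene, contributed a span of 6 nt, too short to be an intron, with 39.6% and 26% in sh1 and 23.5% and 17.5% in sh2, against 7.41% and 6.83% in Con_sh (log2 fold change 2.2, SE 0.393, edgeR adjusted p = 1.53e-05). Pseudogenes share reads with their parent gene, so that this value is uncertain.

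A further 4 genes were named after their values were seen, because they too belong to the 22. SBNO1, named after a fly gene of the Notch pathway, had an intron of 79 nt at 13.7% and 5.49% in sh1 and 12.7% and 6.85% in sh2, against 2.54% and 1.96% in Con_sh (edgeR adjusted p = 0.00156). LMBR1L, a lipocalin receptor, had one of 101 nt at 36.7% and 24.2% in sh1 and 46.1% and 36.2% in sh2, against 13.6% and 15.2% in Con_sh (edgeR adjusted p = 0.03). The ACP5 intron printed above (minus strand, chr19:11578765-11578843) was at 2.89% and 1.53% in sh1 and 3.07% and 0.954% in sh2, against 0.695% and 0.262% in Con_sh (edgeR adjusted p = 0.0394). In these 3 the groups lay apart. NOS3, endothelial nitric oxide synthase, had one of 89 nt at 8.62% and 2.35% in sh1 and 26.6% and 6.41% in sh2, against 2.85% and 2.64% in Con_sh, so that sh1 overlapped Con_sh and sh2 replicate 1 stood apart (edgeR adjusted p = 0.0186). Without sh1 replicate 1, sh2 replicate 1 or Con_sh replicate 2 the adjusted p was 0.113, 0.0918 and 0.42 for SBNO1, 0.301, 0.385 and 0.365 for LMBR1L, 0.633, 1 and 0.708 for ACP5 and 0.931, 1 and 0.513 for NOS3. The last 3 also lost their calls without Con_sh replicate 1 (0.572, 0.308 and 0.343).

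LOC124905564 also belongs to the 22, but its intron of 92 nt fell in 4 candidate genes at a chromosome end with near-identical copies elsewhere. It had 4.87% and 5.02% in sh1 and 3.29% and 3.4% in sh2, against 3.37% and 0.769% in Con_sh, and sh2 overlapped Con_sh (edgeR adjusted p = 0.0384). The call was lost without Con_sh replicate 2 (adjusted p = 1) and without each of the 4 knockdown libraries (0.143, 0.0936, 0.102 and 0.0744).

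Of the 25 changed introns, 8 kept their call whichever library was left out. They are those of ZNF207, SMPD4, CHD4, EDC4, SMPD4BP, HNRNPLL, MAPK12 and RPL7AP82. When the smaller boundary count was doubled in place of the sum, 4 kept it (ZNF207, SMPD4, CHD4 and HNRNPLL). DESeq2 called 12 introns more retained and none less retained, where edgeR called 3. The more retained introns that lost their call under DESeq2 were those of HNRNPL, PHB2, SBNO1, NOS3, LMBR1L, LOC124905564 and ACP5. Both NOP2 entries and the IPO4 intron of 114 nt lost it too.

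The less retained short introns were those of SKIC2, NCAPD2 and TUBB1. SKIC2, the helicase of a complex that feeds RNA to the cytoplasmic exosome, had 0 and 0 boundary reads in sh1 and 2 and 0 in sh2, against 53 and 3 in Con_sh. The zeros allow retention of up to 0.42% and 0.3% in sh1 and 0.447% in sh2 replicate 2, by a limit of 3 reads that covers counting error only, and retention was 8.14% and 0.367% in Con_sh. A single Con_sh library held nearly all of these reads, and without it the adjusted p was 1, against 3.37e-07 with it (edgeR). NCAPD2, a subunit of condensin I, had an intron of 86 nt at 0.0968% and 0.266% in sh1 and 0.519% and 0.218% in sh2, against 2.12% and 1.25% in Con_sh, from 1 and 3 boundary reads in sh1 and 5 and 2 in sh2, against 17 and 15 in Con_sh. TUBB1, the beta tubulin of platelets and megakaryocytes, had one of 104 nt at 9% and 15% in sh1 and 4.12% and 18.7% in sh2, against 50% and 32.2% in Con_sh. Its boundary reads were 18 and 18 in sh1 and 28 and 23 in sh2, against 44 and 37 in Con_sh. Its spliced reads were 91 and 51 in sh1 and 326 and 50 in sh2, against 22 and 39 in Con_sh. The fall thus went with more spliced reads as well as fewer boundary reads, at a mean of 124 reads. For NCAPD2 and TUBB1 the groups lay apart, with edgeR adjusted p-values of 0.0206 and 0.0364. NCAPD2 lost its call without sh1 replicate 1 (0.207), sh2 replicate 2 (0.166) or either Con_sh library (0.65 and 0.0843), and TUBB1 without replicate 1 of sh1 (0.245) or sh2 (1) or either Con_sh library (0.806 and 0.0937).

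DRAP1 and RPS12 held introns that passed the test under 1 shRNA but not over both, and the difference between the shRNAs was tested directly. DRAP1, part of a repressor of RNA polymerase II transcription, had 5.86% and 3.56% in sh1 and 4% and 2.43% in sh2, against 1.89% and 1.47% in Con_sh (edgeR adjusted p = 0.0248 for sh1 and 0.835 for sh2). The ribosomal protein gene RPS12 had 0.107% and 0.119% in sh1 and 0.0548% and 0.0854% in sh2, against 0.064% and 0.505% in Con_sh, where replicate 2 alone had 217 boundary reads (edgeR adjusted p = 0.0186 for sh2). The difference between sh1 and sh2 had an edgeR adjusted p of 1 for both genes. Tested in this way over all short introns, sh1 exceeded sh2 in 2 (0.0219%, against 0.0246% of all tested introns) and fell below it in 2 (0.0219%, against 0.0097%), those of GOLGA8A, GOLGA8B, RAE1 and CPSF1.

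More retained short introns often lay beside another more retained intron. The neighbour was the nearest tested intron of the same gene on either side, whatever the distance. That distance was 1855 and 4525 nt for HNRNPLL, so a neighbour need not lie across a single exon. Of the 20 such loci with a tested neighbour, 13 did so (65%), against 134 of 410 longer more retained introns (32.7%). Among short introns that were not more retained, 51 of 8951 lay next to a more retained intron (0.57%), and among longer ones 605 of 104239 (0.58%). These shares are a description, since adjacent introns share reads and transcripts. The more retained short introns were counted once per locus and the longer ones per entry, so the 65% and the 32.7% are not in the same unit. The 13 also include SMPD4 with its near copy SMPD4BP, and both IPO4 introns, each the neighbour of the other. The 13 loci form 12 pairs, in which the exon between measured 53 to 209 nt with a median of 94 nt. In 1 of them, IPO4, both introns were short, and in the other 11 the neighbour was 124 to 4515 nt long. It lay upstream of the short intron in 6 and downstream in 5, and had the larger log2 fold change in 7. On the other side of the short introns, 14 tested introns lay across the next exon, and none was called by edgeR (lowest adjusted p 0.116, in CHD4), 2 being higher and 0 lower at an unadjusted p under 0.05.

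In ZNF207 the upstream neighbour of 1138 nt was retained at 31.7% and 12.6% in sh1 and 30.1% and 16.6% in sh2, against 1.26% and 1.66% in Con_sh. Its log2 fold change was 4.22, below the 5.13 of the short intron, while the downstream neighbour of 6590 nt had 0.06. In SMPD4BP the downstream neighbour of 124 nt had 42.3% and 27.9% in sh1 and 37.4% and 31.1% in sh2, against 1.43% and 1.36% in Con_sh, a log2 fold change of 5.19 beside 2.87 for the short intron. SMPD4 has a neighbour of the same length, with a log2 fold change of 3.9 beside 3.72. In MYSM1 and SBNO1 the upstream neighbour changed more (4.06 beside 2.42 and 3.79 beside 2.16). In CHD4, MAPK12 and HNRNPL the short intron changed more (2.92, 2.23 and 1.73 beside 1.91, 1.6 and 1.64). For EDC4, HNRNPLL, PSMA1, NOP2, NOS3, LOC124905564 and ACP5 no tested neighbour passed the threshold.

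**Figure D5:**
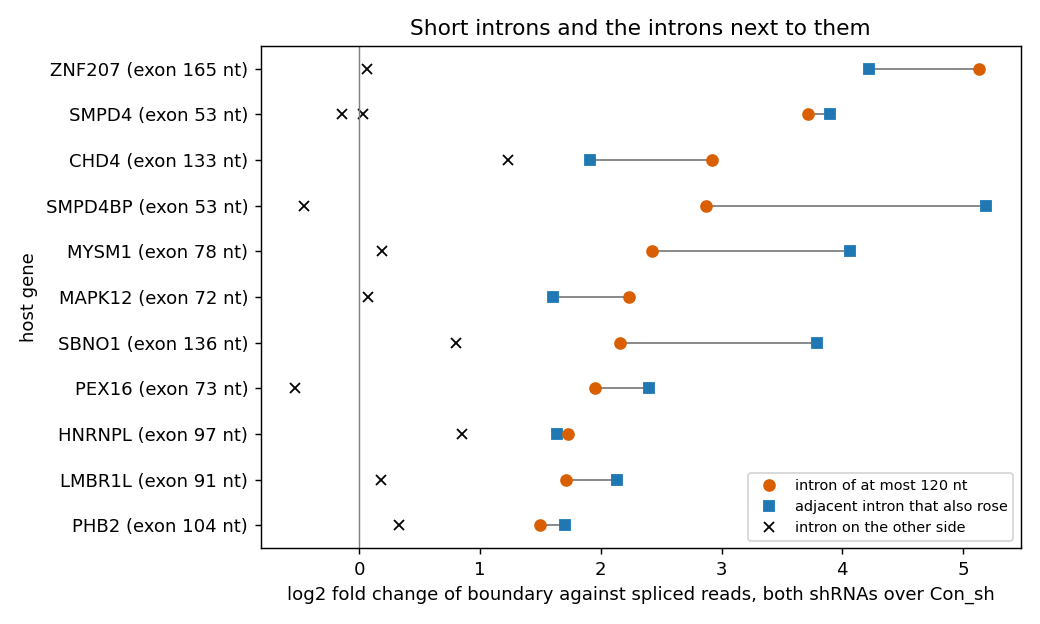
Log2 fold change (boundary over spliced reads), both shRNAs over Con_sh (horizontal axis), in the 11 genes where a more retained short intron lies beside a longer more retained intron, with the length of the exon between. Orange circles are the short introns, blue squares the adjacent introns that also rose and crosses the tested introns on the other side, none of which passed the threshold.

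Gene lists were then read for their very short introns, with the counts set beside the 0.33% of all tested introns. The genes listed from memory for a U12-type intron held 70 short introns in 22 genes, of which 4 entries were more retained (ZNF207, MAPK12 and both in NOP2) and none less. Part of this list was written with results of these libraries known, so that its direction is not independent evidence, and the short intron itself need not be the U12-type one. Its median retention was 2.83% and 3.11% in sh1 and 3.77% and 3.76% in sh2, against 4.05% and 3.39% in Con_sh, and its median log2 fold change was 0.02, beside 0.005 over all short introns. The highest control retention in it was 34.7%, in LZTR1. Of the 25 short introns of proteasome genes, 1 was more retained (PSMA1).

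No short intron was called by edgeR or by DESeq2 in the other 8 lists over both shRNAs, and of the 173 introns in them 1 was higher and 5 lower at an unadjusted p under 0.05 (edgeR). These were the minor spliceosome proteins (7 introns, median log2 fold change 0.34), the factors for branch point and 3′ splice site recognition (27, 0.15), SR proteins and CLK kinases (11, 0.05), major snRNP proteins (29, -0.04), nonsense-mediated decay factors (16, 0.03), cytoplasmic ribosomal proteins (22, 0.11), erythroid genes (16, -0.01) and metabolic housekeeping enzymes (45, -0.08). Short introns of ribosomal protein genes were the most efficiently spliced, at a median of 0.552% and 0.453% in sh1 and 0.402% and 0.551% in sh2, against 0.381% and 0.523% in Con_sh. Those of erythroid genes were at 3.32% and 2.41% in sh1 and 3.86% and 4.07% in sh2, against 2.64% and 4.63% in Con_sh, so that the groups overlapped.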

How the data were processed

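The authors deposited, for each of the 6 libraries, counts of reads at each exon-intron boundary (A1 and A2) and of spliced reads (Exon), raw whole numbers per the file headers, with a covered fraction between 0 and 1 and a retention percent (MSI). The deposited percent equals 100 × boundary / (boundary + 2 × spliced), with a largest deviation of 2.8e-14. Aligner, counting program and read length are not given in the sources used here. Per the labels, RNA was polyA-selected. The submitters' processing notes name hg19, but the positions read as GRCh38 gave GT and AG at nearly all intron ends that could be read. These were 98.2% of 3773 first and 98.9% of 1322 last ends of other introns over 30 nt, against 4.19% GT when read 100 nt further in. Only ends inside the RefSeq windows around gene starts could be read, and the rest of the 241593 listed introns were not checked in this way. GRCh38 is therefore used for names and sequences, from RefSeq GRCh38.p14, and starts are counted from 1.

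Boundary and spliced counts formed a pair per library, fitted with a term for each library, and the boundary-by-group interaction was tested with edgeR 4.0.16 (quasi-likelihood, R 4.3.3) over 134078 introns with a mean of at least 20 reads, with Benjamini-Hochberg adjustment and 0.05 as the threshold. Adjusted p-values without a named tool are edgeR's. The SE printed with a log2 fold change was calculated back from the edgeR test. It is the absolute log2 fold change over the square root of the F statistic. DESeq2 1.42.0 was an alternative, as were other filters, scalings, boundary counts, lengths and each library left out. Libraries of a group differed far beyond counting noise (chi-square per degree of freedom 23.3 to 55), so none is a repeat deposit. Named introns were the 15 more retained and up to 5 less retained with the smallest adjusted p, up to 5 differing between sh1 and sh2, the 5 most retained in Con_sh, the 5 shortest, the 3 deepest and called introns in the gene lists; others are marked where named. The introns, lists and tests were chosen with earlier results of these data known. Intervals and limits cover counting error only.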

Additional observations from a re-analysis of the deposited data

Results flagged for a closer look

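In 4 very short introns the effect of sh1 differed from that of sh2 by a direct test (edgeR adjusted p under 0.05), 2 in each direction, which is 0.0219% of the short introns each way, against 0.0246% and 0.0097% of all tested introns. Scaling by TMM or by size factors gave 5 higher and 2 lower in sh1, and DESeq2 called 0.

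GOLGA8A and GOLGA8B are near-identical golgin genes, and reads may be divided between them. The GOLGA8A intron of 111 nt was retained at 0.877% and 0.316% in sh1, against 0.0826% and 0.0772% in sh2, with 0.114% and 0.244% in Con_sh, a log2 difference of 2.82 (SE 0.543, edgeR adjusted p = 0.0017). The GOLGA8B intron of the same length had 0.183% and 0.104% in sh1, against 0.0217% and 0.0416% in sh2, with 0.0393% and 0.0681% in Con_sh, a log2 difference of 2.28 (SE 0.476, edgeR adjusted p = 0.00985). In sh1 replicate 1, 49 of 52 and 42 of 45 boundary reads lay at 1 boundary. With the smaller boundary count doubled the log2 difference was 1.47 for GOLGA8A and 0.15 for GOLGA8B (edgeR adjusted p of 1 for both). Without sh1 replicate 1 both adjusted p-values were 1, and without sh2 replicate 1 they were 0.247 for GOLGA8A and 1 for GOLGA8B. GOLGA8A also lost its call without sh2 replicate 2 (0.0507).

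RAE1, an mRNA export factor, had an intron of 81 nt at 0.826% and 0.542% in sh1, against 4.7% and 2.11% in sh2, with 1.83% and 1.03% in Con_sh, a log2 difference of -2.3 (SE 0.514, edgeR adjusted p = 0.029). CPSF1, the largest subunit of the cleavage and polyadenylation factor, had one of 82 nt at 0.048% and 0.0773% in sh1, against 0.589% and 0.987% in sh2, with 0.421% and 0.657% in Con_sh, a log2 difference of -3.5 (SE 0.786, edgeR adjusted p = 0.0304). The sh1 libraries of CPSF1 held only 1 and 2 boundary reads. Leaving out sh1 replicate 1, sh1 replicate 2 or sh2 replicate 1 ended the call of RAE1 (adjusted p 0.147, 0.719 and 1) and of CPSF1 (0.557, 0.45 and 0.0656), which also lost it without sh2 replicate 2 (0.541).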

How the results depend on the processing

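The 25 calls over both shRNAs, 19 for sh1, 20 for sh2 and 4 between the shRNAs became 12, 11, 7 and 0 under DESeq2, 14, 9, 4 and 0 at a covered fraction of at least 0.95, and 4, 4, 2 and 0 when the smaller boundary count was doubled (between the shRNAs, edgeR gave 144 higher and 285 lower at an unadjusted p under 0.05). A minimum mean of 50 reads gave 12 for sh2 and 0 between the shRNAs, TMM 7 and size factors 7 between the shRNAs. A length limit of 100 nt gave 12, 10, 7 and 2, with fewer introns by construction, and one of 150 nt gave 29 for sh1 and 32 for sh2. Leaving out 1 library gave 14 to 31, 6 to 24, 6 to 23 and 1 to 4 calls. The lowest numbers were 14 without Con_sh replicate 2, 6 for sh1 without sh1 replicate 1, 6 for sh2 without sh2 replicate 1, and 1 between the shRNAs without either of these; 16 calls over both stood without sh1 replicate 1, and 11 for sh1 and 13 for sh2 without Con_sh replicate 2. Of the 25 introns called over both shRNAs, 12 kept their call under DESeq2, 4 with the smaller boundary doubled, 13 at the covered fraction, and 10 to 24 with 1 library left out. Median retention, 2.2% over the libraries, was 2.43% up to 100 nt and 1.26% with the smaller boundary, and 2.17% to 2.24% with 1 library left out. The cause of these changes was not tested. Over all tested introns, the deviations of libraries with the same experiment number had correlations of 0.0327 to 0.065, under the 0.1 set for taking the numbers as a pairing, although replicate 1 was the higher one in 21 of the 22 more retained introns for each shRNA. The fit with the replicate block called 38 introns (29 more and 9 less retained), 31 for sh1 (25 and 6), 30 for sh2 (26 and 4) and 10 between the shRNAs (4 and 6). No called intron changed direction under any alternative run. Restricting the set to at least 31 nt, chosen after seeing the data, gave 24 calls over both shRNAs. Retention of introns with few boundary reads, such as SKIC2, NCAPD2 and CPSF1, is limited by depth.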
